A study of Mus musculus with 12 samples.

Results

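The replication-dependent histone genes were taken as all genes whose symbol in the authors' normalised tables begins with Hist1h, Hist2h, Hist3h or Hist4h. The rule found 70 of the 53801 genes counted, the same 70 in the colon and in the blood table. They comprise 6 linker histone (H1) genes, 20 H2A, 19 H2B, 12 H3 and 13 H4 genes. The Hist1 cluster on chromosome 13 holds 56 of them, Hist2 on chromosome 3 holds 10, Hist3 on chromosome 11 holds 3 and Hist4 on chromosome 6 holds 1. The annotation lists 67 as protein-coding and 3 (Hist1h2aj, Hist1h2al and Hist3h2bb-ps) as pseudogenes.

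The core histones H2A, H2B, H3 and H4 form the protein spool of the nucleosome, and the linker histone H1 binds the DNA between spools. Cells copy their chromatin in S phase and make most of their histone mRNA then. These mRNAs typically end in a conserved stem-loop instead of a poly(A) tail, which the protein Slbp binds and behind which the U7 particle directs the cut. The libraries were made from total RNA.

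RNA came from the colon and whole blood of male C57BL/6 mice, 8 weeks old when obtained. Mice labelled UC (ulcerative colitis) drank 1.5% dextran sulfate sodium (DSS), which injures the gut lining, for 7 days, control mice did not, and all were killed on day 8. The 12 libraries form 4 labelled groups of 3, UC colon and UC blood from mice 1, 2 and 4 and control colon and control blood from mice 7, 8 and 9. The study picked these mice by disease activity, and it depleted colon and blood RNA with different kits, the blood kit also removing globin RNA, so kit and tissue cannot be told apart.

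The stem-loops of genes on which the comparisons turn are given as DNA on the strand of the gene, with the 16 bases of stem and loop in capitals and 5 flanking bases on each side.
Hist1h1c: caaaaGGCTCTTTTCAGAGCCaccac
Hist2h2aa1: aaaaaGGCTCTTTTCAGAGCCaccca
Hist1h2bm: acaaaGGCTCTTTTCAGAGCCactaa
Hist3h2ba: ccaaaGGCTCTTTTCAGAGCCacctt
Hist1h3c: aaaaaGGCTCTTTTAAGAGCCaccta
Hist1h4f: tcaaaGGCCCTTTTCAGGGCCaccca
Hist1h4n: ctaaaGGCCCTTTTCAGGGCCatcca
Hist1h4i: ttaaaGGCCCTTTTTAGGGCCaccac
All lie in the 3′ untranslated region, at these GRCm38 positions and strands: chr13:23739507-23739532 plus (Hist1h1c), chr3:96246027-96246052 plus (Hist2h2aa1), chr13:21722501-21722526 plus (Hist1h2bm), chr11:58949344-58949369 plus (Hist3h2ba), chr13:23745042-23745067 minus (Hist1h3c), chr13:23551286-23551311 minus (Hist1h4f), chr13:21831793-21831818 minus (Hist1h4n) and chr13:22040961-22040986 minus (Hist1h4i).

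A stem-loop was found behind the stop codon of 46 of the 70 genes, while 95 of the 55450 genes of the whole annotation (0.171%) held it anywhere in a transcript. It began 21 to 58 bases after the stop codon, with a median of 31. The stem parted H4 from the other types. The form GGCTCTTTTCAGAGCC was held by 26 genes, namely 3 H1, 10 H2A, 8 H2B and 5 H3 genes. Of the 12 H4 genes with a stem-loop, 7 held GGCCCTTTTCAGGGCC, 2 held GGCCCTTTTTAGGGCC, 2 held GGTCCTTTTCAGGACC and 1 held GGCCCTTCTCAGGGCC. No member of another type held any of these 4 forms. Of the 24 genes without a match, 18 have no annotated 3′ untranslated region or one of at most 20 bases, so the mRNA end is not known from the annotation. The other 6 are Hist1h1a, Hist1h2bc, Hist1h2bq, Hist1h2br, Hist2h2be and Hist2h3b. Among them, the annotated region is 48 bases in Hist1h1a and 37 in Hist2h3b, so a stem-loop may lie past its end. The annotated transcripts of Hist1h2bc, Hist1h2bq and Hist1h2br are spliced. Only the spliced sequence was searched, so a stem-loop in an intron of these genes would have been missed.

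The promoters of Hist1h1b and Hist1h4i are shown because these genes stood far apart between the tissues in opposite directions. Each window covers 250 bases before to 50 after the start (RefSeq, GRCm38.p6), with CCAAT and TATAAA on either strand in capitals.
Hist1h1b: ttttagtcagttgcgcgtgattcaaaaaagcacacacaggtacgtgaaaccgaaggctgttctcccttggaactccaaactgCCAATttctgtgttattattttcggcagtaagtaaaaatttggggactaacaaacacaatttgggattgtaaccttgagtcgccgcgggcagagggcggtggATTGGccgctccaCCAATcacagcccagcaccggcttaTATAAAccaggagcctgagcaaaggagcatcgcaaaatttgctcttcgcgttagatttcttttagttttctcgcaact
Hist1h4i: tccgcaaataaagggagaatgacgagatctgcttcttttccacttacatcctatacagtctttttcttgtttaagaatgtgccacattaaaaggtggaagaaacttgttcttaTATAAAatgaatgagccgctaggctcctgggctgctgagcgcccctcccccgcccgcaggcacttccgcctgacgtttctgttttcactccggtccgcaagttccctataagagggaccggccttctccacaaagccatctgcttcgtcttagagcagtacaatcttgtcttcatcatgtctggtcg
They are chr13:21780576-21780875 and chr13:22041313-22041612, both on the minus strand. Of the 70 genes, 62 had a promoter entry. CCAAT stood on either strand in 53 of the 62 (85.5%), against 37.4% of 32851 promoters of all genes. All 6 H1, 18 H2A, 16 H2B and 10 H3 promoters held it, and 3 of the 12 H4 promoters (25%). TATAAA stood in 35 (56.5%), against 13.6% of all promoters. The windows of 20 members overlap that of another member, so these counts are not of independent sequences.

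The total count was 69181049 to 103662306 per colon library and 80867247 to 142536804 per blood library. The 7SL RNA genes took 35.9% to 65.4% of a blood library and 4.90% to 6.50% of a colon library. Levels are given as normalised CPM, CPM being the count relative to library size, here after TMM scaling of the 12 libraries together, unless another scale is named. A field of the labels names the other tissue in every sample, and the groups follow the tissue field, which the markers match. The 5 colon epithelium markers summed to at least 2883 in colon and at most 3.24 in blood, and the 5 red cell markers to at least 71740 in blood and at most 185 in colon. The 4 neutrophil markers did not follow the disease labels, and groups are therefore called labelled UC and labelled control. Their sum in colon was 63.5, 0.337 and 0.522 in mice 1, 2 and 4 and 25.9, 1.35 and 197 in mice 7, 8 and 9. In blood it was 7281, 821 and 785 in mice 1, 2 and 4 and 2637, 630.0 and 5976 in mice 7, 8 and 9, so that mice 1, 7 and 9 were high in both tissues.

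Summed over the 70 genes, the CPM of all counts, with no TMM scaling, was in colon 1929, 2716 and 2903 in mice 1, 2 and 4 and 2039, 3007.5 and 6152 in mice 7, 8 and 9. In blood it was 724, 674 and 1021 in mice 1, 2 and 4 and 962, 689 and 949 in mice 7, 8 and 9. On this scale every colon library stood above every blood library (3124.5 ± 1549 against 836 ± 157, mean ± SD, n = 6 each). In normalised CPM the order of the means turned, with 1458 ± 628 in colon and 1763 ± 318 in blood, and the libraries of the tissues overlapped. Colon mouse 9, labelled control, held the highest sum of all on either scale, 2652.5 normalised CPM, while the other 5 colon libraries lay between 944 and 1573. In whole tissue, fewer cells of a type and less RNA per cell cannot be told apart.

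**Figure D1:**
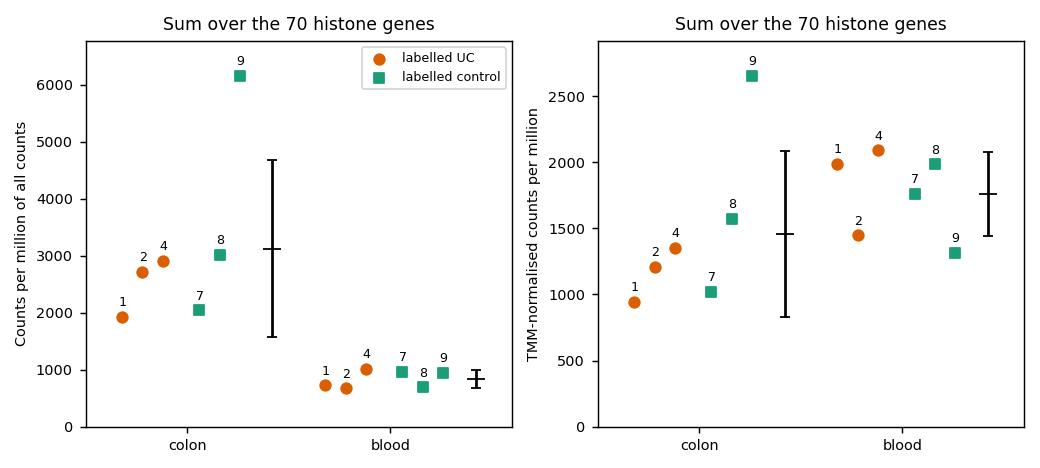
Sum of the 70 histone genes in each of the 12 libraries, as CPM of all counts (left) and as normalised CPM (right). Points are libraries numbered by mouse, circles labelled UC and squares labelled control, and the bars give the mean and SD of the 6 libraries of a tissue. Colon mouse 9 is the highest point on both scales, at 6152 and 2652.5.

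Shares within the family do not depend on that scale. H3 genes took 17.0% ± 2.51 of the histone counts in colon and 8.03% ± 1.74 in blood (SD, n = 6), with ranges of 14.9% to 21.2% and 5.15% to 10.3% that did not overlap. H2A genes took 16.4% ± 1.70 in colon and 20.1% ± 1.06 in blood, and their ranges (14.7% to 18.5% and 18.7% to 21.6%) did not overlap either. The shares of the other types overlapped between tissues. H1 took 20.0% ± 2.94 in colon and 20.6% ± 4.51 in blood. H2B took 22.3% ± 1.59 and 27.7% ± 3.56, and H4 took 24.3% ± 2.18 and 23.6% ± 5.60. Per kb of exon the H3 share was 17.2% ± 1.86 in colon and 9.05% ± 1.71 in blood.

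Within colon, 2 types also parted by label. H1 took 22.5% ± 1.14 of histone counts in labelled UC colon and 17.5% ± 1.36 in labelled control colon (SD, n = 3), with ranges of 21.4% to 23.7% and 16.03% to 18.7%. H2A took 14.8% ± 0.209 and 17.9% ± 0.591, with ranges of 14.7% to 15.1% and 17.5% to 18.5%. The labelled groups did not overlap for either type, but the other 3 types did overlap, and these shares were not tested.

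**Figure D2:**
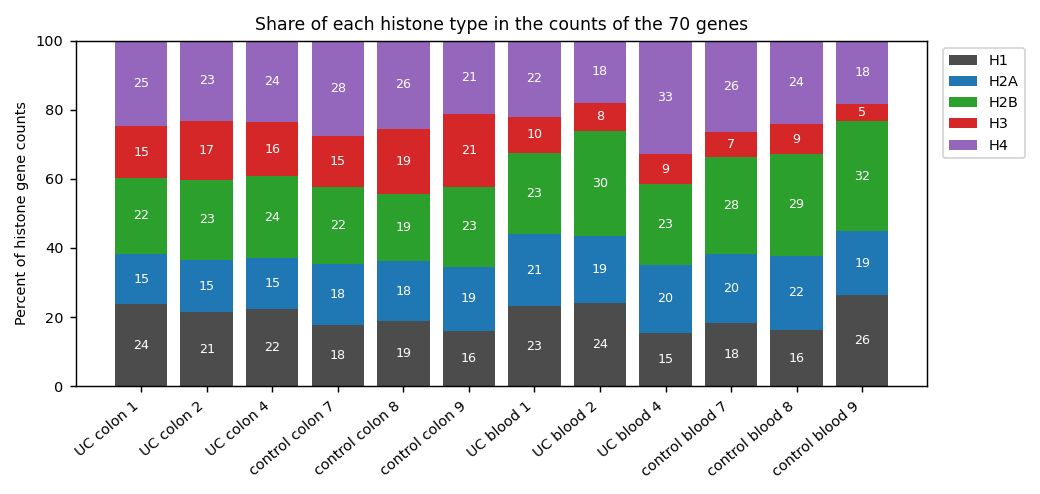
Percent of the counts of the 70 histone genes that fell on each histone type, 1 bar per library, with the rounded percent in each block. The H3 block is smaller in every blood library (at most 10.3%) than in every colon library (at least 14.9%), and the H4 block of blood mouse 4 is the largest of its type at 32.9%.

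Fewer genes made up the family's RNA in blood. The 5 largest genes of a library held 43.7% to 58.4% of its histone counts in blood and 19.3% to 34.4% in colon. In blood the linker histone gene Hist1h1c (256 to 391, median 292) and the H2B gene Hist1h2bc (253 to 374, median 275) led. After them came Hist2h2aa2, Hist2h2aa1, Hist1h4n, Hist1h4c, Hist1h4h, Hist1h4m, Hist1h4d and Hist1h2bg, with means from 94.7 down to 38.9. In colon Hist1h1c led as well (83.2 to 160.3, median 138). Hist1h2bc, Hist1h4d, Hist1h4h, Hist1h1e, Hist1h1d, Hist1h4c, Hist1h3f, Hist2h2aa2 and Hist2h2bb followed, with means from 68.2 down to 41.4 and ranges that overlapped their neighbours.

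Between genes, levels are comparable only per length, here the annotated exon length. In 23 members the annotation runs at least 100 bases past the stem-loop, by 840 of 1560 bases in Hist1h1c and 770 of 1138 in Hist1h4d. If the mRNA ends at the stem-loop, the level per kb of such a member is understated, so the order depends on the annotation. In mean normalised CPM per kb of exon, the highest genes in blood were Hist1h2bc (252), Hist1h4n (199), Hist1h1c (194), Hist2h2aa2 (179) and Hist2h2aa1 (157). In colon they were Hist1h4h (122), Hist2h2bb (109), Hist1h1c (84.6), Hist1h4n (83.1) and Hist2h2aa2 (79.0). At the other end, the testis H2A gene Hist1h2aa had at most 2 counts in a colon library and 4 in a blood library. The testis linker histone gene Hist1h1t had 6 to 38 counts in colon and 0 to 9 in blood. A mean of at least 1 normalised CPM was reached by 65 members in colon and 67 in blood.

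**Figure D3:**
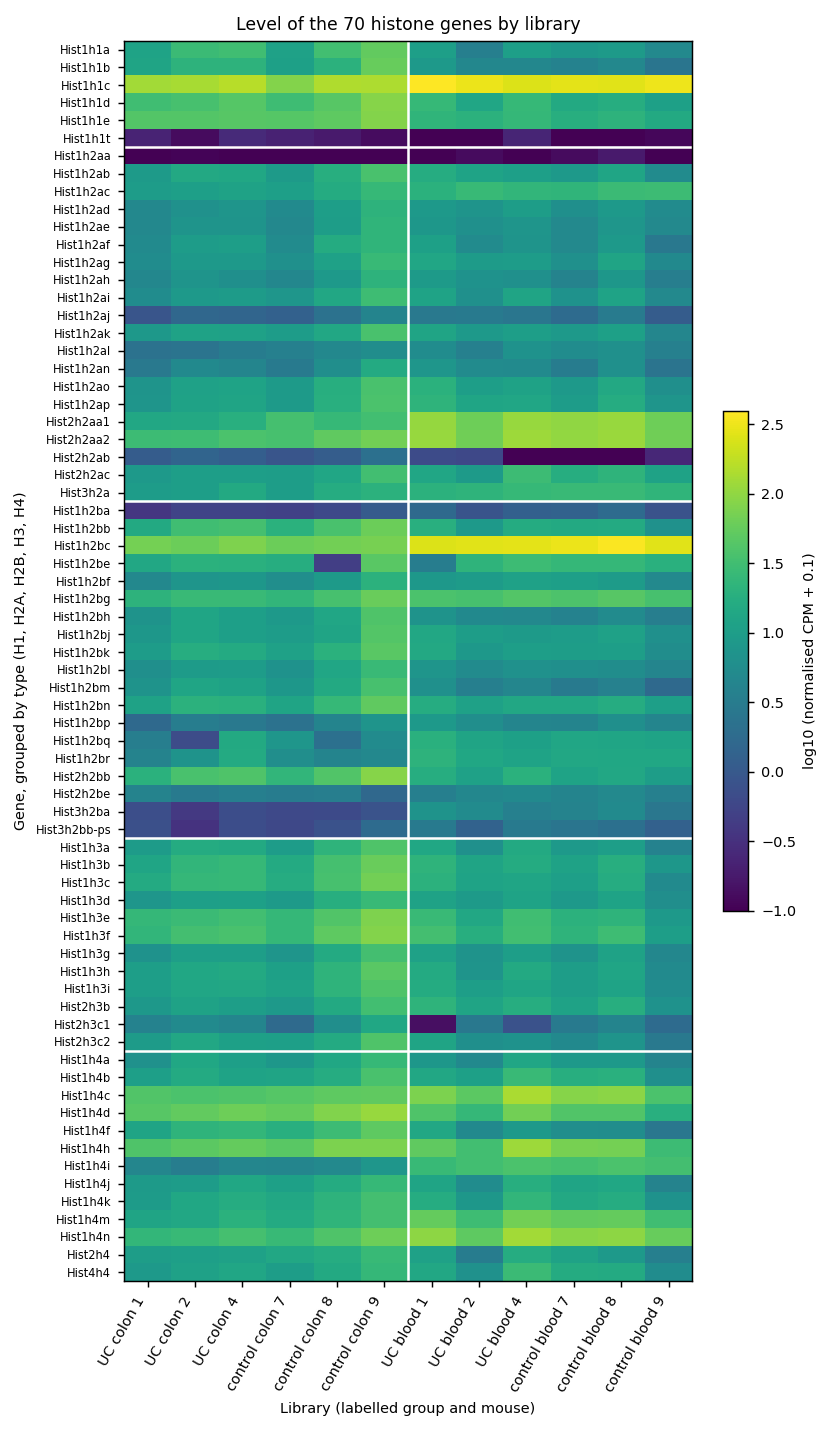
Level of each of the 70 histone genes (rows, grouped by type) in each of the 12 libraries (columns), as log10 of normalised CPM plus 0.1. The rows of Hist1h1c and Hist1h2bc are the brightest in the blood columns, Hist1h2aa and Hist1h1t are dark throughout, and the column of colon mouse 9 is brighter than the other colon columns in 59 of the 65 rows with a colon mean of at least 1.

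Colon was compared with blood over all 12 libraries with edgeR's quasi-likelihood test across 23258 genes. Calls needed both an absolute log2FC over 1 and a Benjamini-Hochberg adjusted p no higher than 0.05. Of the 70 members, 69 passed the filter on low counts, and Hist1h2aa did not. Of the 69, 12 were called higher in colon, against 37.7% of all genes tested, and 11 lower, against 20.8%. In either direction 33.3% of the members were called, against 58.5% of all genes. An unadjusted p under 0.05 was reached by 38 members, against 72.8% of all genes. The median log2FC of the 69 was 0.36, beside 0.46 for all genes. Scaled by library size alone, the median of all genes rose to 2.57, and 57 members were called higher and 0 lower, so each direction below is relative to the TMM scale. Without mouse 8, 21 members were called higher, and without mouse 9, 9 were higher and 13 lower with a median log2FC of -0.05.

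The linker histones divided. Hist1h1c (chromosome 13, 23738808 to 23740367, plus strand) stood at 125, 132, 160.3, 83.2, 147 and 143 in colon mice 1, 2, 4, 7, 8 and 9 and at 391, 306, 256, 279, 269 and 312 in the blood of the same mice. All 6 blood libraries lay above all 6 colon libraries. It was lower in colon on the TMM scale (log2FC -1.20, SE 0.18, edgeR adjusted p 1.48e-04) and had a log2FC of 0.93 by library size alone.

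The other somatic H1 genes were higher in colon. Hist1h1b stood at 12.4, 20.6, 21.0, 11.02, 20.5 and 57.7 in colon mice 1, 2, 4, 7, 8 and 9 and at 8.28, 4.46, 4.57, 3.85, 4.59 and 2.39 in blood (log2FC 2.34, SE 0.39, edgeR adjusted p 2.84e-04). Hist1h1a (log2FC 1.84, SE 0.42), Hist1h1e (log2FC 1.35, SE 0.17) and Hist1h1d (log2FC 1.33, SE 0.27) were called higher too, with edgeR adjusted p-values of 0.00242, 4.13e-05 and 0.00113. For each of the 4 genes every colon library was above every blood library. Hist1h1t, near zero in blood, was not called (log2FC 2.38, SE 1.03, edgeR adjusted p 0.0575).

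As a share of H1 counts, which library scaling does not touch, Hist1h1c held 48.4% ± 7.89 in colon and 85.6% ± 3.65 in blood (SD, n = 6). Hist1h1e held 18.8% ± 3.36 and 5.81% ± 1.15, and Hist1h1d held 15.7% ± 2.61 and 5.09% ± 1.66. Hist1h1a held 9.29% ± 2.85 and 2.20% ± 0.857, and Hist1h1b held 7.86% ± 2.91 and 1.304% ± 0.367. None of these 5 ranges overlapped between the tissues. As parts of the same total, a larger share of Hist1h1c leaves less for the others, so these are not 5 separate results. Shares within the other types often parted too. They were higher in colon for 10 H2A, 8 H2B, 1 H3 and 6 H4 genes. They were higher in blood for 2, 3, 1 and 3, and overlapped for 8, 8, 10 and 4.

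**Figure D4:**
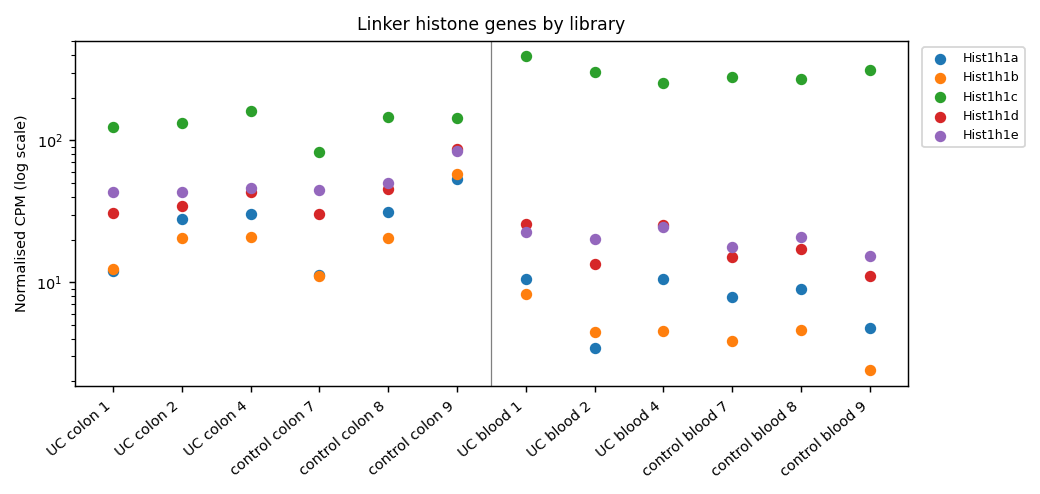
Normalised CPM, on a log scale, of the 5 somatic linker histone genes in the 12 libraries. Hist1h1c is the top point in every library and is higher in blood (at least 256) than in colon (at most 160.3), while the other 4 genes are each higher in colon.

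Among the 19 H2B genes, 4 were called higher in colon and 5 lower. Hist1h2bc (chromosome 13, 23684199 to 23692908, plus strand) stood at 69.4, 60.4, 78.3, 61.5, 67.9 and 71.9 in colon mice 1, 2, 4, 7, 8 and 9 and at 253, 268, 278, 304, 374 and 272 in blood. The blood libraries all lay above the colon libraries on the TMM scale (log2FC -2.09, SE 0.14, edgeR adjusted p 2.99e-07), while by library size alone its log2FC was 0.05. It held 23.4% ± 7.18 of H2B counts in colon and 60.6% ± 4.23 in blood.

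Hist3h2ba (chromosome 11, 58948920 to 58949533, plus strand), whose stem-loop is shown above, is a low gene, at 0.299 to 0.718 in colon and 2.55 to 6.95 in blood. It had the lowest log2FC of the members (log2FC -3.02, SE 0.30, edgeR adjusted p 5.09e-06), and its libraries did not overlap. The pseudogene Hist3h2bb-ps (log2FC -1.60, SE 0.41), the testis gene Hist1h2ba (log2FC -1.296, SE 0.35) and Hist1h2br (log2FC -1.17, SE 0.30) were called lower with libraries that overlapped, and by library size alone their log2FC were 0.59, 0.93 and 0.98. Hist1h2ba was no longer called without mouse 8, nor Hist1h2br without mouse 1.

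Hist1h2bm, called higher, stood at 7.02, 12.9, 11.8, 7.83, 15.3 and 34.8 in colon mice 1, 2, 4, 7, 8 and 9 and at 6.24, 3.48, 4.36, 2.92, 3.69 and 1.59 in blood. Every colon library was above every blood library (log2FC 1.996, SE 0.37, edgeR adjusted p 5.62e-04). Hist1h2bh (log2FC 1.58, SE 0.36), Hist2h2bb (log2FC 1.54, SE 0.32) and Hist1h2bb (log2FC 1.28, SE 0.35) were called higher with libraries that overlapped, Hist1h2bb not without mouse 9. Hist2h2be, known from olfactory neurons, was not called (log2FC -0.49, SE 0.23, edgeR adjusted p 0.0717).

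Of the 19 H2A genes tested, 1 was called higher and 2 lower. The 2 lower ones, Hist2h2aa1 (log2FC -2.08, SE 0.20, edgeR adjusted p 4.29e-06) and Hist2h2aa2 (log2FC -1.22, SE 0.23, edgeR adjusted p 5.43e-04), have identical coding sequences, and by library size alone their log2FC were 0.09 and 0.96. Summed, the pair stood at 42.6, 44.4, 55.5, 68.9, 77.2 and 99.7 in colon mice 1, 2, 4, 7, 8 and 9 and at 217, 127, 223, 202, 223 and 128 in blood (log2FC -1.58, SE 0.21, edgeR adjusted p 4.25e-05). The tissues did not overlap. Hist2h2ab, called higher (log2FC 3.17, SE 0.93, edgeR adjusted p 0.0101), had 194, 282, 243, 109, 151 and 411 counts in colon and 29, 19, 0, 0, 0 and 10 in blood, so its fold rests on few blood counts. Hist3h2a did not pass the fold threshold (log2FC -0.83, SE 0.19, edgeR adjusted p 0.0027).

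H3 was the type with no gene called lower. Of its 12 genes, 11 had a log2FC above 0, with a median of 0.83, and 2 were called higher, Hist2h3c2 (log2FC 1.31, SE 0.36, edgeR adjusted p 0.00709) and Hist1h3c (log2FC 1.22, SE 0.36, edgeR adjusted p 0.0109). Hist1h3c was at 15.8, 24.6, 25.7, 16.7, 34.7 and 66.2 in colon mice 1, 2, 4, 7, 8 and 9 and at 20.0, 11.998, 12.9, 10.5, 16.6 and 5.09 in blood. These libraries overlapped, and without mouse 2, 4 or 9 Hist1h3c was no longer called, nor was Hist2h3c2 without mouse 9. Hist1h3f was not called (log2FC 0.77, SE 0.33, edgeR adjusted p 0.0579).

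H4 genes encode practically the same protein, and their RNAs differed in both directions. Hist1h4i (chromosome 13, 22040636 to 22041362, minus strand) stood at 4.32, 3.20, 4.39, 4.17, 4.76 and 7.64 in colon mice 1, 2, 4, 7, 8 and 9 and at 26.1, 32.1, 37.3, 34.1, 37.1 and 33.4 in blood. The tissues did not overlap (log2FC -2.83, SE 0.19, edgeR adjusted p 3.35e-07). The copies Hist1h4m (log2FC -1.34, SE 0.26) and Hist1h4n (log2FC -1.29, SE 0.28) were called lower as well, with libraries that overlapped. By library size alone their log2FC were 0.84 and 0.89.

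Hist1h4f was called higher (log2FC 1.93, SE 0.35, edgeR adjusted p 4.94e-04). It stood at 12.6, 21.7, 23.9, 18.3, 29.2 and 50.4 in colon mice 1, 2, 4, 7, 8 and 9 and at 14.1, 4.94, 8.58, 5.91, 5.61 and 2.58 in blood, with an overlap through mouse 1. The promoter windows of all 4 called H4 genes lacked CCAAT and held TATAAA, as did those of Hist1h4j and Hist1h4k, which were not called. Across the 12 H4 promoters, 3 held CCAAT and 8 held TATAAA, so the pattern does not set the called genes apart. Hist4h4, alone on chromosome 6, was not called (log2FC -0.08, SE 0.38, edgeR adjusted p 0.857).

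**Figure D5:**
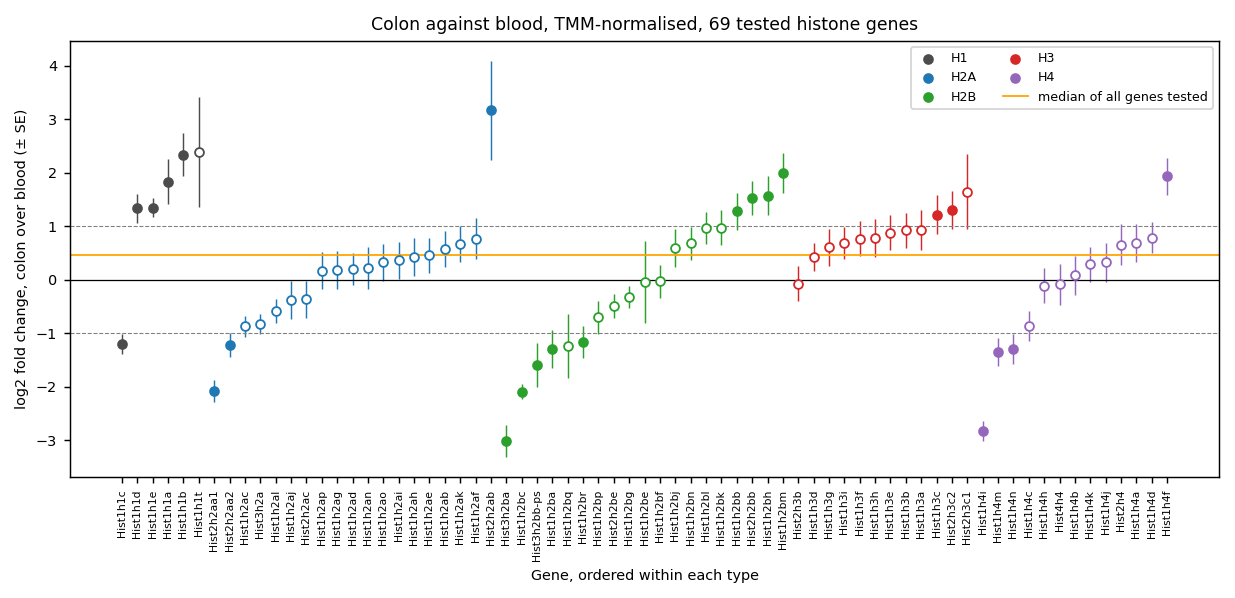
Log2 fold change of colon over blood on the TMM scale, with its SE, for the 69 tested histone genes, ordered within each type and coloured by type. Filled points are the 23 called genes, dashed lines mark 1 and -1, and the orange line is the median of all genes tested (0.46). Called genes lie on both sides in every type except H3.

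The tissues did not overlap for 6 members higher in colon, against 34.3% of all genes, and for 5 lower, against 19.2%. A stem-loop was found in 7 of the 11 members called lower, 8 of the 12 called higher and 31 of the 46 not called. Of the 6 members with no stem-loop in a 3′ untranslated region of over 20 bases, 5 had a log2FC below 0. Their median was -0.83, beside 0.46 for all genes, and 2 were called lower and 1 higher. Hist1h2bq and Hist1h2br, both among them, have identical coding sequences, and Hist1h1a and Hist2h3b may lack a match through a short annotation. In Hist1h2bc, Hist1h2bq and Hist1h2br a stem-loop in an intron would have been missed, so these members are not known to lack one.

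Within colon the levels followed the mouse. Of the 65 with a mean of at least 1, 59 had their highest level in mouse 9 and 49 their lowest in mouse 1. All 12 H3 and all 13 H4 genes were highest in mouse 9. The 6 exceptions were Hist1h1c, Hist1h2bc, Hist1h2bq and Hist1h2br (highest in mouse 4), Hist2h2aa1 (mouse 7) and Hist2h2be (mouse 1). Summed with Hist2h2aa2, which has the same coding sequence, Hist2h2aa1 was highest in mouse 9 (99.7, against 68.9 in mouse 7). Its part of that pair in colon ranged from 32.2% to 49.1%, so its exception may rest on how reads were split. The highest colon level was 4.04 times the lowest in the median member, but 1.296 times in Hist1h2bc and 1.93 times in Hist1h1c.

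The sum of the 25 S phase and proliferation genes was highest in the same library, at 223, 449 and 321 in mice 1, 2 and 4 and 219.5, 328 and 775 in mice 7, 8 and 9, although Pola1, Tyms and Cdt1 were highest in mouse 2. Mki67, which marks dividing cells, stood at 53.1, 89.1, 79.9, 56.0, 87.1 and 195 in colon mice 1, 2, 4, 7, 8 and 9, and it and Top2a (148 in mouse 9) were the largest terms of that sum. Colon mouse 9 also had the highest neutrophil and the lowest smooth muscle marker sum (197 and 512), against at most 63.5 and at least 984 in the others. Its colon epithelium sum was the lowest (2883, others at least 3231.5) and its monocyte and macrophage sum the highest (210.2, others at most 185). The part of these cells in the result was not tested.

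In blood, mouse 9 had the lowest level of 47 of 67 members. The highest lay in mouse 1 for 32 and in mouse 4 for 25. These orders are relative to the TMM scale, whose factor was 0.364 in blood mouse 1, 0.489 in mouse 4 and 0.721 in mouse 9. In CPM of all counts the family sum was 724 in mouse 1, 1021 in mouse 4 and 949 in mouse 9, so mouse 9 stood above mouse 1. Of the 13 H4 genes, 12 were highest in mouse 4, and Hist1h4f was the exception. Hist1h4c, for example, stood at 77.3, 48.8, 139, 88.0, 92.04 and 37.5 in blood mice 1, 2, 4, 7, 8 and 9. The S phase genes did not give this order, with sums in blood of 784, 1019 and 634 in mice 1, 2 and 4 and 563, 805 and 833 in mice 7, 8 and 9.

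The labelled groups were compared within each tissue. Since the neutrophil markers did not follow the labels, these comparisons are of the groups as labelled. In colon, edgeR called 0 of 69 members, against 0.0045% of 22238 genes, and 4 members had an unadjusted p under 0.05, against 1.41% of all genes. DESeq2 and limma-voom called 0 as well, with 4 and 3 members under that unadjusted level. The 4 in edgeR, each at an adjusted p of 0.99995, were Hist2h2aa1 (log2FC -0.94, SE 0.19), Hist2h4 (log2FC -0.84, SE 0.26), Hist1h2al (log2FC -0.86, SE 0.28) and Hist2h2aa2 (log2FC -0.67, SE 0.27). Without mouse 7, 50 members were under it and 0 were called.

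Hist2h2aa1 stood at 14.1, 14.5 and 18.2 in labelled UC colon and at 33.9, 25.2 and 32.1 in labelled control colon. The labelled groups did not overlap for it and 3 other members, all lower in labelled UC, against 2.62% of all genes, and 0 were higher, against 2.73%. Of the 69 members 63 had a log2FC below 0, with a median of -0.76 beside -0.01 for all genes, and without mouse 9 the median was -0.20. The extremes were Hist1h2ai (log2FC -1.10, SE 0.50) and Hist1h2br (log2FC 0.88, SE 0.50). Summed with Hist1h2bq, which has the same coding sequence, Hist1h2br stood at 7.25, 7.49 and 30.7 in colon mice 1, 2 and 4. The sum was 13.6, 6.02 and 9.93 in mice 7, 8 and 9, so only mouse 4 of the labelled UC group lay above all of them.

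In blood, edgeR called 0 of 68 members, against 0% of 16759 genes, and 0 had an unadjusted p under 0.05, against 1.44% of all genes. DESeq2 and limma-voom called 0, with 1 and 2 members under that level. Without mouse 8, 13 were under it. Of the 68, 60 had a log2FC above 0, with a median of 0.34 beside 0.04 for all genes. That median was 0.12 without mouse 9, with 45 above 0, and 0.58 without mouse 8, and without mouse 4, 43 were above 0. No member had labelled groups fully apart, against 2.54% of all genes higher and 3.91% lower. The extremes were Hist2h2ab (log2FC 2.73, SE 1.72) and Hist2h3c1 (log2FC -1.35, SE 1.014), both low in blood. Hist2h3c1 had 2 counts in blood mouse 1 and 47 to 202 in the other blood libraries. Hist2h3c2 had its highest blood count, 649, in mouse 1, and how reads were split between the genes was not tested.

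The difference between the labelled effects of the tissues was tested as an interaction. It was called for 0 of 69 members in edgeR, against 0.0043% of 23258 genes, and for 0 in DESeq2 and limma-voom. The unadjusted p was under 0.05 for 8 members in edgeR, against 3.41% of all genes, and for 13 in DESeq2 and 4 in limma-voom. With the mouse as a block, 1 member was under it in edgeR, and 0 were called. Left out in turn, mouse 7 gave 34 and mouse 8 gave 22 such members, mouse 2 gave 9, and mice 1, 4 and 9 gave 1 each, with 0 called every time.

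Of the 11 genes listed as replication-independent histones, 4 were called higher in colon and 2 lower, against 37.7% and 20.8% of all genes tested. H1f0, a linker histone of differentiated cells, stood at 50.6 to 71.6 in colon and 1.29 to 3.14 in blood (log2FC 4.92, SE 0.16, edgeR adjusted p 6.42e-09). H3f3a, which encodes the replacement histone H3.3, had the opposite order, at 82.1 to 105 in colon and 1382 to 2558 in blood (log2FC -4.32, SE 0.20, edgeR adjusted p 3.45e-08). H3f3b, which encodes the same protein, did not pass the fold threshold (log2FC 0.42, SE 0.14, edgeR adjusted p 0.0167). H2afx, whose product is phosphorylated at DNA breaks, was called higher (log2FC 1.91, SE 0.32), H2afj lower (log2FC -2.12, SE 0.22) and H2afz was not called (log2FC -0.07, SE 0.22). Like most members, H2afx was highest among colon libraries in mouse 9 (35.4, others at most 13.3). So were H2afz, H2afy2 and Cenpa of this list, but not its other genes. H1fx and H2afy2, also called higher, are at 0 in every blood library, so no fold is given. By library size alone 9 of the 11 were called higher and 1 lower, against 17887 and 1757 of the 23258 genes tested.

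Of the 16 genes for histone RNA processing and histone gene transcription, Sympk, a scaffold of the cleavage complex, was called higher (log2FC 1.04, SE 0.21) and Lsm10, a subunit of the U7 particle, lower (log2FC -1.16, SE 0.21). Among all genes tested, 37.7% were called higher and 20.8% lower. Slbp lay at 9.25 to 15.4 in colon and 9.63 to 14.1 in blood (log2FC -0.08, SE 0.17, edgeR adjusted p 0.699). Of 12 chaperones, Chaf1a, of the complex that deposits histones on newly copied DNA (log2FC 1.18, SE 0.35), and Rbbp7 (log2FC 1.03, SE 0.18) were called higher, and Rbbp4 (log2FC -1.014, SE 0.16) and Hira, which deposits H3.3 (log2FC -1.09, SE 0.14), lower. By library size alone all 16 and all 12 were called higher.

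Of the 25 S phase and proliferation genes, Gins2 was among those called higher, and the genes called lower were Ccna2, Ccne2, Cdc6, E2f1, Mcm3, Mcm4, Mki67, Pola1 and Rrm2. The shares of all genes called were 37.7% higher and 20.8% lower. Mki67 was at 53.1 to 195 in colon and 114 to 302 in blood (log2FC -1.11, SE 0.34, edgeR adjusted p 0.0124). Pcna, the replication clamp, was not called (log2FC 0.43, SE 0.21, edgeR adjusted p 0.0789). By library size alone 17 of the 25 were called higher and 2 lower. In the labelled comparisons edgeR called no gene of these 4 lists in either tissue. An unadjusted p under 0.05 was reached by 1 gene in colon and 2 in blood, against 1.41% and 1.44% of all genes.

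Single copies are uncertain where members resemble each other. In the median member 51.8% of its 50-base words occurred in no other member, the share was under 50% in 32 members and it was 0% in Hist2h2aa2. Hist1h4m with Hist1h4n, summed, were lower in colon (log2FC -1.31, SE 0.27, edgeR adjusted p 0.00123). So were Hist1h2bq with Hist1h2br (log2FC -1.20, SE 0.37, edgeR adjusted p 0.0133), while Hist1h2ao with Hist1h2ap were not called (log2FC 0.25, SE 0.34, edgeR adjusted p 0.534). By library size alone the single genes Hist1h4m, Hist1h4n and Hist1h2br had log2FC above 0. Hist1h2bq took 7.67% to 56.7% of its pair in colon and 46.7% to 48.5% in blood. Hist1h2be overlaps Hist1h1e on the same strand, and its level was 0.360 in colon mouse 8 and 3.22 in blood mouse 1, against at least 14.3 in the other libraries. In all, 7 members overlap a gene on their own strand and 23 a gene on the other strand.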

How the data were processed

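Total RNA of the colon and whole blood of 6 mice was sequenced in 12 libraries. The authors removed ribosomal reads, aligned to GRCm38 with STAR and ran StringTie 1.3.4c with the Ensembl annotation, options for strand being left at their defaults. They deposited whole-number gene counts derived from transcript coverage, which were used for every test, and per-tissue signal tables of counts that the authors divided by DESeq2 size factors, used only to find the members and as an alternative gene set. Means rest on 3 libraries per labelled group, from separate mice.

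Counts were tested with edgeR 4.0.16 (TMM, filterByExpr, quasi-likelihood F test) in R 4.3.3, with Benjamini-Hochberg adjustment over all genes tested. Colon was compared with blood, and labelled UC with labelled control in each tissue alone and as an interaction. The standard error is the absolute log2FC over the square root of F. The steps were tested on simulated data. Alternatives were DESeq2 1.42.0, limma-voom (limma 3.58.1), other scalings and filters, the authors' genes only, leaving out each mouse, and the mouse as a block. Summing identical copies was chosen after seeing the data. Both tissues came from the same mice, and the deviations of a mouse's 2 libraries from their group means correlated at r = 0.0208 to 0.268 over 15802 genes.

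Members and lists were chosen with earlier results of these data known. Named genes were the 10 highest members per tissue, the 5 highest per kb, the called members with the 5 largest rises and falls, the extremes of the labelled comparisons, textbook linker, testis and outlying genes, and called genes of the lists, of which 1 is not reported here. Other called members, the members at an unadjusted p under 0.05 and the exceptions to the order of mice were named after their values were seen. Stem-loops were searched in GENCODE vM21 transcripts and promoters taken from RefSeq.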

Additional observations from a re-analysis of the deposited data

How the results depend on the processing

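Of 693 values recomputed under an alternative, 27 reversed, all of them in colon against blood. By library size alone the count of called members was 57, 57 higher and 0 lower, and the log2FC turned to 0.93 for Hist1h1c, 0.93 for Hist1h2ba, 0.0529 for Hist1h2bc, 1.84 for Hist1h2bg, 0.98 for Hist1h2br, 1.31 for Hist1h4c, 2.05 for Hist1h4h, 0.84 for Hist1h4m, 0.89 for Hist1h4n, 0.0928 for Hist2h2aa1, 0.96 for Hist2h2aa2, 1.62 for Hist2h2be, 1.31 for Hist3h2a, 0.59 for Hist3h2bb-ps and 2.11 for Hist4h4. Of the values near 0, Hist1h4h reversed to 0.00826, 0.0122, 0.17, 0.0881 and 0.0360 with limma-voom, the block and without mouse 4, 7 or 8, ranging from -0.33 to 0.17 when 1 mouse was left out. Hist4h4 reversed to 0.0220, 0.0271, 0.0267, 0.0252, 0.16, 0.18 and 0.15 with DESeq2, limma-voom, no filter on low counts, the block, without mouse 4, without mouse 7 and without mouse 8, ranging from -0.45 to 0.18 when 1 mouse was left out. The cause of these reversals was not tested.

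Leaving out 1 mouse gave 22 to 31 called members, 9 to 21 higher (the most without mouse 8, 21) and 10 to 13 lower. With the mouse as a replicate block, 12 members were called higher and 12 lower in colon against blood and 0 in the interaction, and members at an unadjusted p under 0.05 in the interaction went from 8 to 1. DESeq2 called 18 higher and 11 lower. The labelled comparisons and the interaction had 0 calls under each alternative run. The mean family total was 1458 CPM in colon and 1763 in blood relative to the TMM library size, but 3574 in colon and 2046 in blood relative to the counts of the authors' genes, where colon was the higher. With 3 mice per labelled group, small differences were not detectable, and low members such as Hist1h1t and Hist2h2ab rest on few counts.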
